A study of Mus musculus with 14 samples.

Results

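The genes of the insulin-like growth factor (IGF) axis were followed in the left ventricle of mice with and without pressure overload. The 10 genes were selected by name from the 49315 genes of the count table: the ligands Igf1 and Igf2, the receptors Igf1r and Igf2r, and the binding proteins Igfbp2, Igfbp3, Igfbp4, Igfbp5, Igfbp6 and Igfbp7. All 10 passed the filter on low counts, which kept 15292 genes. The family was chosen with the values of these libraries known, so the levels and fold changes of its members are given as a description. No p-value of a member is printed, and where members are counted as past a threshold on p, this is a description as well.

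WT mice were compared with HCN4F mice, a knock-in line in which a tyrosine codon in exon 4 of the pacemaker channel gene Hcn4 is replaced by one for phenylalanine. Male animals had Sham surgery or transverse aortic constriction (TAC), a ligature around the aortic arch that raises the load on the left ventricle, at an age of 10 to 12 weeks and the ventricle was taken 5 weeks later. Strain and zygosity are not given in the sources used here. Of the 16 samples in the study, 14 libraries of poly(A) RNA were used, with n = 4 in WT-Sham, n = 4 in HCN4F-Sham, n = 4 in HCN4F-TAC and n = 2 in WT-TAC (replicates 2 and 3). The other samples were not analysed here. The 2 WT-TAC libraries enter every comparison with that group, and the 4 comparisons share groups with one another.

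IGF peptides act through the IGF receptor, a tyrosine kinase that feeds the PI3K, AKT and mTOR pathway and is known in the heart for physiological growth and survival of cardiomyocytes. Igf2r binds the second ligand and carries it to lysosomes. Binding proteins are secreted, hold the ligands in the tissue or the blood, and release them when proteases cut them, and several of them also act on cells without a ligand. In the heart, fibroblasts, macrophages and vascular cells are known sources of ligands and binding proteins.

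The libraries held 22309914 to 35210939 reads on genes. Levels are given as normalised CPM, reads of a gene per 1000000 reads of the library (CPM) after TMM normalisation, and for comparisons between genes as the same value per kilobase of exon. Markers of ventricular cardiomyocytes, 8 genes, summed to 72240 to 74810 CPM in WT-Sham, 64150 to 68510 in HCN4F-Sham, 67040 and 67310 in WT-TAC and 54220 to 61080 in HCN4F-TAC, where every library was below all others. Atrial cardiomyocyte markers summed to 19.8 to 37.6 CPM in 13 libraries. HCN4F-TAC replicate 2 held 66.1 CPM of atrial markers, with the highest Myl7 (9.91 CPM), Myl4 (17.4 CPM), Sln (3.79 CPM) and Dkk3 (24.2 CPM) of all libraries. The rest of the list peaked in other libraries, Stard10 in HCN4F-Sham replicate 1 (31.6 CPM). Bmp10, Upk1a and Fgf12 were highest in HCN4F-TAC replicate 4, HCN4F-TAC replicate 1 and WT-Sham replicate 4. Sln was listed at 0 in 10 libraries, Bmp10 in 11 and Myl7 in 3. HCN4F-TAC replicate 3 had a sum of activated fibroblast markers (276 CPM) within the range of the Sham libraries (190 to 299 CPM). Over all genes, the chi-square distance per gene put replicate 3 nearest to replicate 1 (17.9). Replicate 2 lay at 33.6, 52.1 and 66.2 from replicates 1, 3 and 4. Replicate 4 lay at 28.7, 50.3 and 66.2 from replicates 1, 3 and 2. Replicates 2 and 3 were thus set apart by marker genes, while the largest distance was that between replicates 2 and 4. In whole tissue, fewer cells of a type and less RNA per cell cannot be told apart.

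Per kilobase of exon, Igfbp7 was the most abundant transcript of the family in every group. It is a secreted protein of vessel walls and matrix with low affinity for IGFs. In WT-Sham its level was 151 ± 11.6 (SD, n = 4) per kilobase, above the range of every other member. Igf2r followed at 20.5 ± 1.65 and Igfbp4 at 20.3 ± 1.73, and the ranges of these neighbours overlapped. Igfbp5 came next at 14.95 ± 0.66, and then Igfbp6 at 10.2 ± 0.92 and Igfbp3 at 9.53 ± 1.05, a pair whose ranges overlapped as well. Igf2 stood at 6.41 ± 1.22, Igf1r at 2.01 ± 0.10 and Igf1 at 0.97 ± 0.07, with no overlap between these neighbours. Igfbp2 was last at 0.03 ± 0.02 per kilobase. WT-TAC kept this order. In HCN4F-Sham the mean of Igfbp6 was above that of Igfbp5 (14.9 ± 2.28 against 14.2 ± 3.35). In HCN4F-TAC Igfbp6 (21.3 ± 7.93) was also above Igfbp4 (20.6 ± 3.69), and Igfbp2 (1.80 ± 1.81) above Igf1 (1.38 ± 0.37). The ranges of each of these exchanged pairs overlapped. Igfbp1, the binding protein of liver and uterus, was listed at 0 in all 14 libraries, which allows at most 3 reads, or 0.0859 to 0.137 CPM, per library.

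**Figure D1:**
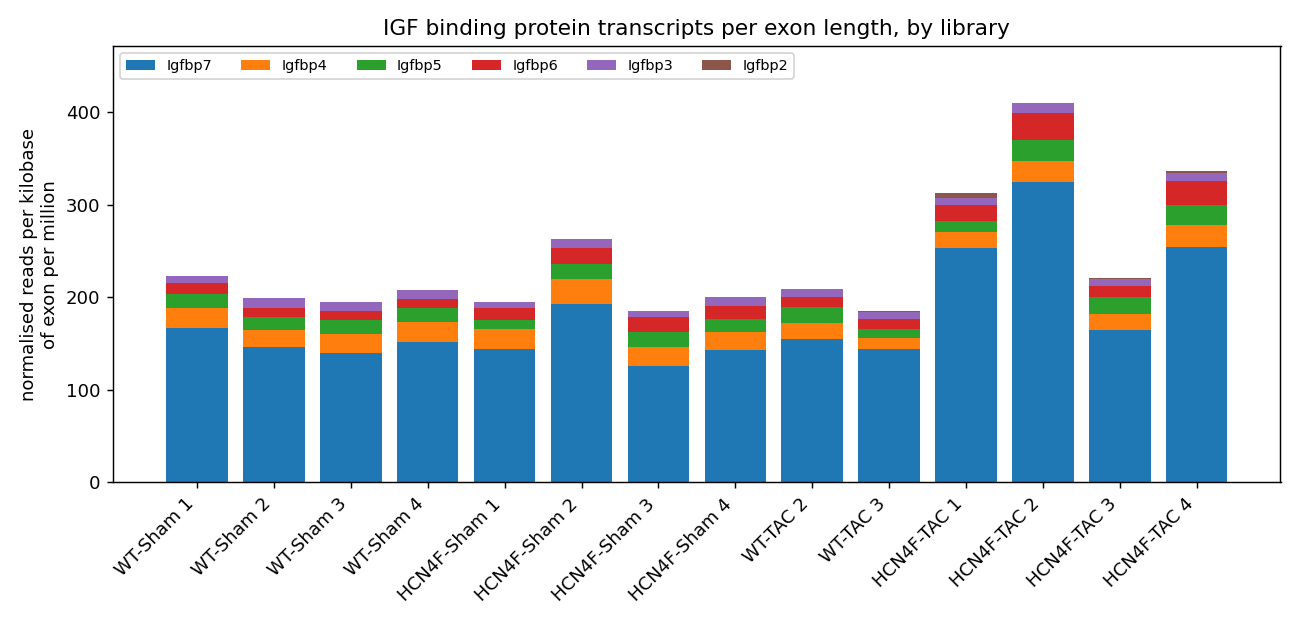
Binding protein transcripts in each library (horizontal axis) as normalised CPM per kilobase of exon (vertical axis), stacked by gene. Igfbp7 made up 68.0% to 81.1% of the sum in every library, and Igfbp2 at most 1.40%.

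Of the sum over the 6 binding proteins per kilobase of exon, Igfbp7 took a mean of 73.3% in WT-Sham, 71.6% in HCN4F-Sham, 76.2% in WT-TAC and 77.6% in HCN4F-TAC. Igfbp4 had a mean share of 9.87%, 10.6%, 7.29% and 6.59% in the same order, and in HCN4F-TAC its range overlapped that of Igfbp6 (6.53%). Igfbp2 went from 0.0158% in WT-Sham and 0.0117% in HCN4F-Sham to 0.159% in WT-TAC and 0.575% in HCN4F-TAC.

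Calls needed an adjusted p under 0.05 from edgeR together with a log2 fold change past 1 in either direction. In HCN4F, TAC against Sham called 1 of the 10 members, Igfbp2, where 2.75% of all tested genes were called. On the adjusted p alone 2 members passed, Igfbp2 and Igfbp7, both higher after TAC, where 13.6% of all genes passed. In WT, TAC against Sham called 0 members, where 0.706% of all genes were called. On the adjusted p alone Igf2r passed, where 4.54% of all genes did, and 3 members had an unadjusted p under 0.05, where 22% of all genes did. In HCN4F 5 members did, where 28.3% of all genes did. Without HCN4F-TAC replicates 2 and 3, Igfbp2 and Igf2r passed on the adjusted p in WT, where 5.22% of all genes did, and Igfbp2 and Igfbp7 in HCN4F, where 8.63% did. DESeq2 passed the same 2 genes in each genotype, where 9.7% and 16.2% of its tested genes passed. These comparisons were in view when the family was chosen, and nothing is read from the shares.

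HCN4F against WT called 0 members after Sham, where 0.209% of all genes were called, and 0 after TAC, where 0.0719% were. On the adjusted p alone 0 members passed in either, where 0.471% and 0.111% of all genes did. In edgeR's quasi-likelihood test 2 members had an unadjusted p under 0.05 after Sham, where 15.2% of all genes did, and 5 after TAC, where 12.5% did. With DESeq2, 0 members had an adjusted p under 0.05 after Sham and 3 after TAC (Igf1, Igfbp6 and Igfbp7), where 2.52% and 1.44% of its tested genes did. The genotype by surgery interaction, the test of whether the response to TAC differed between genotypes, passed in 0 of 15292 genes (0%) with edgeR, with 1418 (9.27%) at an unadjusted p under 0.05 and 37 genes with DESeq2. For the members, 2 had an unadjusted interaction p under 0.05 in edgeR and 0 an adjusted one in DESeq2. A difference in the response to TAC between genotypes is thus not shown for any member.

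The libraries of the compared groups did not overlap for 5 members in TAC against Sham in WT, where this was so for 39.2% of all genes with these group sizes. It held for 1 member in TAC against Sham in HCN4F (15.1% of all genes), for 2 in HCN4F against WT after Sham (8.56%) and for 6 in HCN4F against WT after TAC (22.2%). In that last comparison Igf1, Igfbp2, Igfbp4, Igfbp6 and Igfbp7 were higher in every HCN4F-TAC library than in both WT-TAC libraries, and Igf2r was lower in every one. The median log2 fold change of the 10 members was -0.10 for TAC against Sham in WT and 0.18 in HCN4F, and 0.06 and 0.50 for HCN4F against WT after Sham and after TAC. Over all tested genes these medians were -0.02, -0.01, 0.01 and 0.00.

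**Figure D2:**
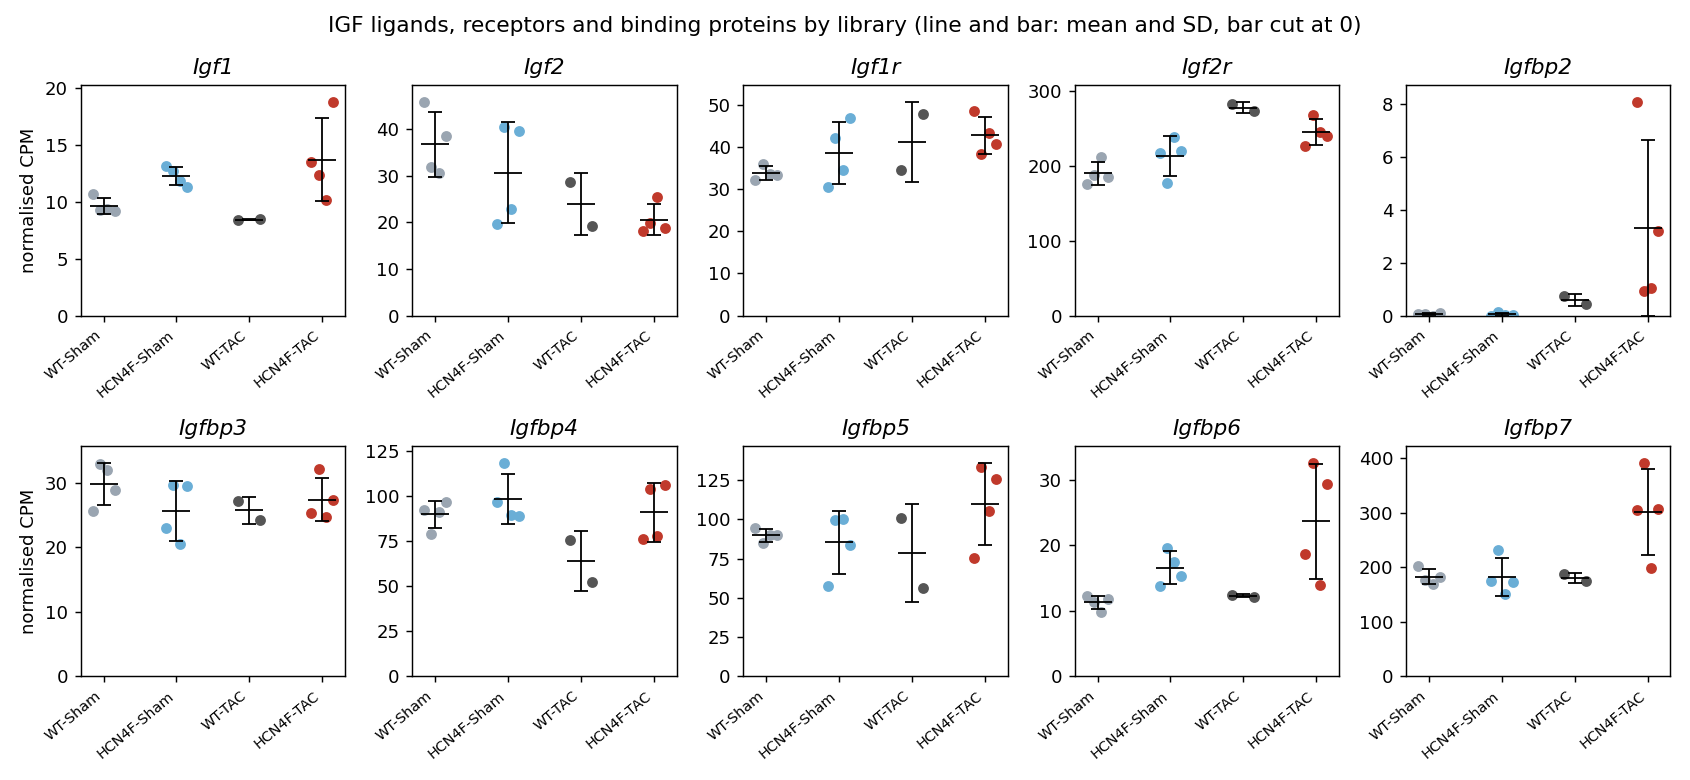
Normalised CPM (vertical axes, each from 0) of the 10 genes in the 4 groups, 1 point per library, with the mean as a line and the SD as a bar cut at 0. Igfbp2 stands near 0 in all 8 Sham libraries and reaches 8.09 CPM in HCN4F-TAC, and Igf1 in the HCN4F groups lies above both WT groups except for HCN4F-TAC replicate 3.

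Igfbp2 encodes a binding protein that prefers the second IGF ligand and carries an integrin-binding motif. The gene lies at chr1:72824503-72852474 on the plus strand (GRCm38), and Igfbp5 ends 5457 bases away on the opposite strand with no protein-coding gene between. In the 4 WT-Sham libraries it had 0.07, 0.07, 0.00 and 0.10 CPM, and in the 4 HCN4F-Sham libraries 0.00, 0.14, 0.04 and 0.03 CPM. Each of these values rested on 0 to 3 reads, so no fold between the Sham groups is given. In WT-TAC replicates 2 and 3 it had 0.74 and 0.43 CPM. In HCN4F-TAC replicates 1 to 4 it had 8.09, 0.92, 1.06 and 3.21 CPM. Every TAC library thus stood above every Sham library, and every HCN4F-TAC library above both WT-TAC libraries, with replicate 1 far above the others.

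The reads behind these values were few outside HCN4F-TAC. In HCN4F, 332 reads after TAC stood against 5 after Sham, a ratio of 67.6 after scaling by library size (exact 95% interval of the counts 28.7 to 209). In WT, 33 reads stood against 7, a ratio of 8.86 (3.85 to 23.7). Between the TAC groups, 332 reads stood against 33, a ratio of 5.55 (3.88 to 8.2), and 195 of the 332 came from HCN4F-TAC replicate 1. These intervals cover counting error only, and the spread between the 4 HCN4F-TAC animals, 3.32 ± 3.35 CPM (SD), was as wide as their mean. The fitted log2 fold change was 6.02 ± 0.98 (SE) in HCN4F, 3.09 ± 1.29 in WT and 2.52 ± 0.85 between the TAC groups, and fitted values of a gene so near 0 depend on the prior count. In HCN4F the value ranged over 5.08 to 6.91 in 22 other settings of the analysis, with the lowest without HCN4F-TAC replicate 1. Between the TAC groups the value was 1.58 ± 0.57 without HCN4F-TAC replicate 1 and 3.29 ± 0.49 without HCN4F-TAC replicates 2 and 3. In HCN4F it was 6.80 ± 0.55 without replicates 2 and 3.

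RefSeq gives Igfbp2 a pair of start sites (GRCm38.p6). Their promoters, from 250 bases before to 50 after the start, are shown with that of Igfbp7 because these are the members that passed the adjusted threshold after TAC in HCN4F. All 10 genes matched this table, with 14 promoters. Capitals mark matches on either strand to the GC box (GGGCGG), the E-box (CACGTG) and the AP-1 motif (TGANTCA). The sequences had been seen before these motifs were chosen.
Igfbp2 first start, chr1:72824230-72824529, plus strand: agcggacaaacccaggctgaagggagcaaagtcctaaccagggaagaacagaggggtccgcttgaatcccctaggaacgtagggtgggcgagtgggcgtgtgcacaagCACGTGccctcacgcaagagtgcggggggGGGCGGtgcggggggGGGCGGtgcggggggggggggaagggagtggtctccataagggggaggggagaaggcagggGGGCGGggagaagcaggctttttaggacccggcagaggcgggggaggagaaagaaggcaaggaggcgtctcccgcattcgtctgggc
Igfbp2 second start, chr1:72825137-72825436, plus strand: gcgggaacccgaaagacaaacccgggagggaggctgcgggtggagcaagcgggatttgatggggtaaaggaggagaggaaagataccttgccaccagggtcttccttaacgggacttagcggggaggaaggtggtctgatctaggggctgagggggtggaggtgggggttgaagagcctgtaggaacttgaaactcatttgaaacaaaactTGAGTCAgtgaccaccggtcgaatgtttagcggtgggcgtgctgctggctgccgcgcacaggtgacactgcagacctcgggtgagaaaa
Igfbp7, chr5:77407996-77408295, minus strand: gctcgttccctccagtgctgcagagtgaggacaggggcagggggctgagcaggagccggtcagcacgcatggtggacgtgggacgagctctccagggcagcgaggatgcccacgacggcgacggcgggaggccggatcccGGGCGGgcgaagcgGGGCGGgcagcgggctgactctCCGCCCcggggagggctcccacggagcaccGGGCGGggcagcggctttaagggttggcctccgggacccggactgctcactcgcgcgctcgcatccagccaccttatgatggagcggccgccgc
The first Igfbp2 promoter held 3 GC boxes and 1 E-box at a GC content of 67.0%, the second 1 AP-1 match at 57.3%, and that of Igfbp7 held 4 GC boxes at 73.3%. The median GC content of all promoters was 52.7%. Of 32851 promoters of this length, 35.7% held a GC box, 7.15% the E-box and 7.81% the AP-1 motif. Matches that overlapped one another were each counted. Among the members, an E-box match was found in Igf2r and Igfbp2, an AP-1 match in Igf1 and Igfbp2, and a GC box in Igf1r, Igf2, Igf2r, Igfbp2 and Igfbp7. The TATA box (TATAAA) was found in Igfbp4 and Igfbp6 (13.6% of all promoters) and the TEAD motif (GGAATG) in Igf2 and Igfbp5 (14.7%). A match is a string of letters and not a bound site.

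Igfbp7 was the other member that rose in HCN4F. The gene lies at chr5:77349240-77408041 on the minus strand and overlaps Polr2b on the other strand, and since the use of strand in counting is not given in the sources used here, reads from the overlap cannot be told apart. In WT-Sham it had 202, 177, 170 and 183 CPM, and in HCN4F-Sham 174, 233, 152 and 172 CPM. The WT-TAC libraries had 188 and 175 CPM, within the range of both Sham groups. In HCN4F-TAC replicates 1 to 4 it had 306, 392.1, 199 and 307 CPM. Replicate 3 overlapped the HCN4F-Sham range, and the others stood above all Sham libraries. The log2 fold change was 0.72 ± 0.17 (SE) in HCN4F, -0.01 ± 0.20 in WT and 0.73 ± 0.21 between the TAC groups. In HCN4F the value ranged over 0.56 to 0.88 in 22 other settings, and the adjusted threshold was missed in the fit to the compared groups alone. Without HCN4F-TAC replicates 2 and 3 it was 0.74 ± 0.13.

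Igfbp6 prefers the second IGF ligand. It had 12.2, 11.3, 9.86 and 11.8 CPM in WT-Sham and 13.8, 19.6, 17.5 and 15.4 CPM in HCN4F-Sham. After TAC it had 12.5 and 12.2 CPM in WT and 18.7, 32.6, 13.9 and 29.4 CPM in HCN4F. Every HCN4F library stood above every WT library, and within HCN4F the surgeries overlapped. The log2 fold change between genotypes was 0.55 ± 0.22 after Sham and 0.94 ± 0.27 after TAC, and neither passed the adjusted threshold. With TAC against Sham it was 0.52 ± 0.21 in HCN4F and 0.13 ± 0.27 in WT. In HCN4F it was 0.32 without HCN4F-TAC replicate 2 and 0.71 without replicate 3, and in the latter fit it passed the adjusted threshold.

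The remaining binding proteins did not pass in any comparison. Igfbp3, the main carrier in plasma together with the acid-labile subunit, had 20.4 to 32.9 CPM over all libraries, and its log2 fold changes lay between -0.22 and 0.10. Igfbp4, a binding protein that the protease Pappa cuts, had 92.4, 78.9, 91.3 and 96.7 CPM in WT-Sham and 75.7 and 52.2 CPM in WT-TAC. Both WT-TAC libraries stood below WT-Sham, with a log2 fold change of -0.49 ± 0.17, which was -0.78 without WT-TAC replicate 2 and -0.25 without replicate 3. HCN4F-TAC had 76.1, 104, 77.5 and 106 CPM of Igfbp4, of which the lowest lay just above the higher WT-TAC library. Igfbp5, which binds to matrix, had 75.3, 134, 105 and 126 CPM in HCN4F-TAC against 101 and 56.5 CPM in WT-TAC, and these ranges overlapped. Without WT-TAC replicate 3 the log2 fold change of Igfbp5 between the TAC groups was 0.13, and without replicate 2 it was 0.96, so that its value rests on which WT-TAC library is used.

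**Figure D3:**
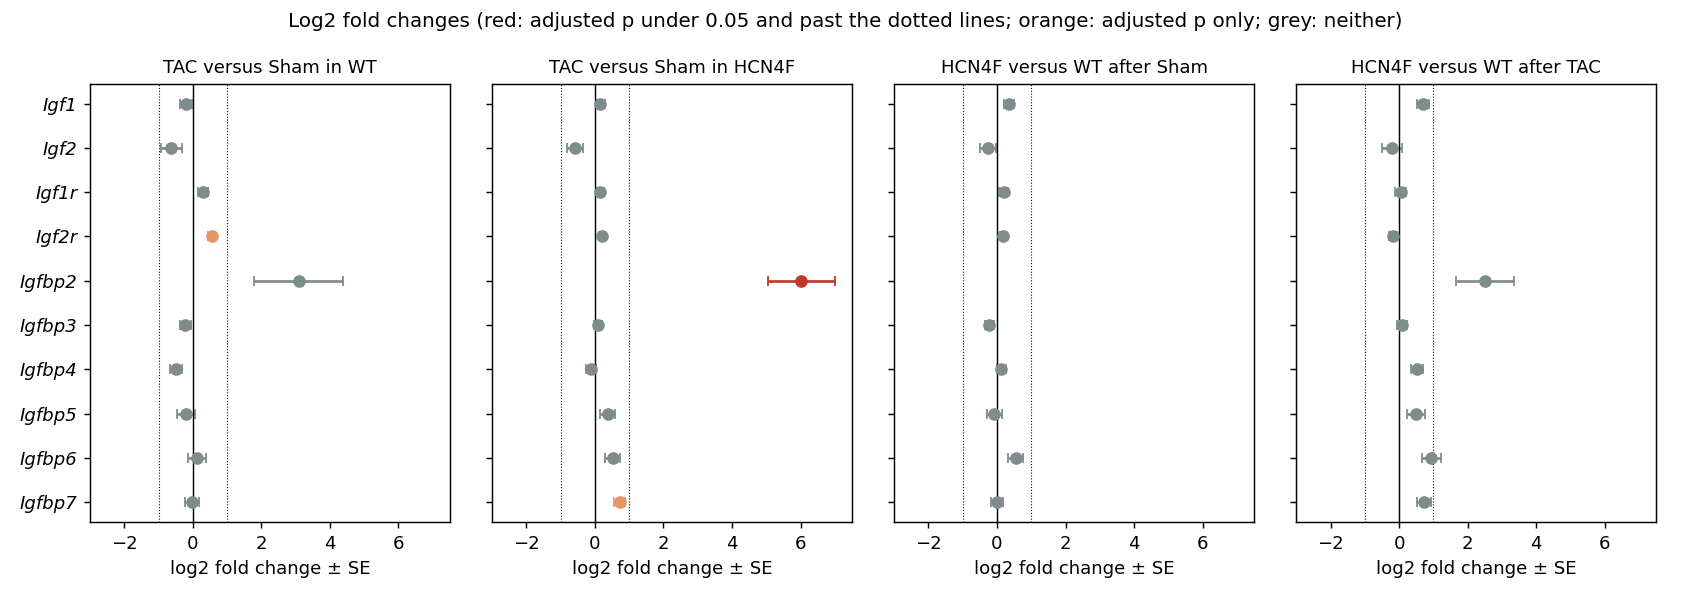
Log2 fold change (horizontal axis) with its SE as a bar for each gene (vertical axis) in the 4 comparisons. Only Igfbp2 in HCN4F is past both thresholds, Igf2r in WT and Igfbp7 in HCN4F pass the adjusted p alone, and Igfbp2 after Sham is not drawn since both groups held 3 reads or fewer per library.

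Of the ligands, Igf1 encodes the growth hormone-induced peptide (chr10:87858265-87937042, plus strand). It had 10.7, 9.25, 9.37 and 9.18 CPM in WT-Sham and 8.38 and 8.44 CPM in WT-TAC. In HCN4F-Sham it had 13.1, 12.7, 11.8 and 11.3 CPM, and in HCN4F-TAC 13.5, 12.4, 10.2 and 18.75 CPM. Within each surgery every HCN4F library was above every WT library, and across surgeries HCN4F-TAC replicate 3 (10.2 CPM) was below WT-Sham replicate 1 (10.7 CPM). The log2 fold change between genotypes was 0.35 ± 0.14 after Sham and 0.70 ± 0.18 after TAC, and neither passed the adjusted threshold. TAC against Sham gave 0.16 ± 0.14 in HCN4F and -0.19 ± 0.17 in WT. In HCN4F this value was 0.39 ± 0.13 without HCN4F-TAC replicates 2 and 3 and -0.03 without replicate 4, the library with the highest level.

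Igf2, the fetal ligand of an imprinted locus (chr7:142650766-142666816, minus strand), passed in no comparison. It had 45.8, 31.9, 30.7 and 38.4 CPM in WT-Sham and 28.7 and 19.2 CPM in WT-TAC. HCN4F-Sham had 19.7, 40.4, 22.9 and 39.6 CPM and HCN4F-TAC 18.1, 19.8, 25.4 and 18.8 CPM. The WT groups did not overlap and the HCN4F groups did. The log2 fold change was -0.62 ± 0.30 in WT and -0.57 ± 0.24 in HCN4F, and neither passed the adjusted threshold, except in HCN4F without HCN4F-Sham replicate 1. These values rest on single libraries. In WT it was -0.93 without WT-TAC replicate 2 and -0.36 without replicate 3, and in HCN4F -0.42 without HCN4F-Sham replicate 2 and -0.73 without HCN4F-Sham replicate 1. The antisense gene Igf2os had at most 0.37 CPM in any library.

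H19, the noncoding RNA that lies 72622 bases from Igf2 and is transcribed from the maternal copy, had 22.8, 12.4, 16.7 and 25.3 CPM in WT-Sham and 9.65 and 3.26 CPM in WT-TAC. In HCN4F it had 14.5, 18.6, 12.3 and 17.6 CPM after Sham and 3.77, 9.52, 13.7 and 5.085 CPM after TAC. The WT groups did not overlap, and in HCN4F only TAC replicate 3 reached the Sham range. Its log2 fold change was -1.62 ± 0.55 in WT (adjusted p = 0.113) and -0.96 ± 0.42 in HCN4F (adjusted p = 0.157) in edgeR's quasi-likelihood test.

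Of the receptors, Igf2r (chr17:12682406-12769664, minus strand) is the mannose 6-phosphate receptor, which sorts lysosomal enzymes and clears the second IGF ligand. It had 177, 188, 212 and 186 CPM in WT-Sham and 284 and 273 CPM in WT-TAC. HCN4F-Sham had 218, 177, 239 and 221 CPM and HCN4F-TAC 227, 269, 245 and 240 CPM. The WT groups did not overlap, and the HCN4F groups did. The log2 fold change was 0.55 ± 0.11 in WT and 0.20 ± 0.09 in HCN4F, and the interaction (-0.35) did not pass. Its call on the adjusted p in WT was lost when either WT-TAC library was left out, while the log2 fold change stayed between 0.51 and 0.60 in 22 other settings. In HCN4F the value fell short of that with all libraries when HCN4F-Sham replicate 2 was left out (0.12) and when HCN4F-TAC replicates 2 and 3 were (0.12 ± 0.11). The antisense RNA Airn overlaps Igf2r and had 3.19 to 6.25 CPM, reads that cannot be told apart from those of Igf2r without strand.

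Igf1r, the signalling receptor, passed in no comparison. It had 32.3 to 36.1 CPM in WT-Sham, 30.6 to 47.0 in HCN4F-Sham, 34.6 and 47.9 in WT-TAC and 38.3 to 48.7 in HCN4F-TAC. All groups overlapped except WT-Sham and HCN4F-TAC, which are not compared in the design. Its log2 fold changes lay between 0.05 and 0.29 in the 4 comparisons and moved with single libraries. It was 0.05 for TAC against Sham in HCN4F without HCN4F-Sham replicate 1 (0.15 with it), and 0.08 for HCN4F against WT after Sham without HCN4F-Sham replicate 4 (0.19 with it). For TAC against Sham in WT the value was 0.03 without WT-TAC replicate 3 and 0.51 without replicate 2, and between the TAC groups it was 0.30 and -0.17.

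The sum of the 6 binding proteins followed the libraries of HCN4F-TAC. It was 510, 695, 422 and 600 CPM in HCN4F-TAC replicates 1 to 4, against 320 and 404 CPM in WT-TAC, 385 to 427 CPM in WT-Sham and 365 to 500 CPM in HCN4F-Sham. Markers of activated fibroblasts, 8 genes with Postn, Cilp, Comp and Acta2 among them, summed to 407, 553, 276 and 506 CPM in the same 4 libraries. Both sums, and Igfbp6 and Igfbp7 alone, put these libraries in the order of replicates 3, 1, 4 and 2. Igfbp7 is itself part of the binding protein sum and was nearly level in replicates 1 and 4 (306 and 307 CPM). The same order was seen in the sums of fibroblast markers (1997, 2284, 2554 and 2667 CPM) and macrophage markers (143, 176, 219 and 229 CPM). Igfbp2 did not have it, since its highest level was in replicate 1. The sum of activated fibroblast markers was 241 and 253 CPM in WT-TAC, 251 to 299 CPM in WT-Sham and 190 to 297 CPM in HCN4F-Sham. Acta2 alone had 68.8 to 213 CPM over all libraries and was highest in WT-Sham replicate 1, where the sum was 299 CPM. In TAC against Sham in HCN4F, 7 of the 8 markers had a higher level with an adjusted p under 0.05, and 1 had a negative log2 fold change. In WT 0 of the 8 passed. Of all genes, 13.6% in HCN4F and 4.54% in WT passed in either direction. The marker lists were chosen with earlier results of these libraries known. Cthrc1 was listed at 0 in 2 libraries and the other 7 markers in none. Fibroblast markers (9 genes) summed to 1997 to 2667 CPM in HCN4F-TAC, 1626 and 2002 CPM in WT-TAC, 1985 to 2096 CPM in WT-Sham and 1747 to 2290 CPM in HCN4F-Sham. Ventricular cardiomyocyte markers were lowest in the same 4 HCN4F-TAC libraries (54220 to 61080 CPM), and so were 4 Schwann cell markers (3.59 to 7.05 CPM, against 7.21 to 13.65 CPM in the other 10). Red blood cell markers were highest in HCN4F-TAC replicate 2 (364.5 CPM, against 70.9 to 220.8 CPM in the other 13). Mitochondrial genes took 13.9% to 18.6% of the reads in HCN4F-TAC and 17.1% to 23.1% in the other groups. The part of these cells in the levels of the binding proteins was not tested.

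Among the Sham libraries, HCN4F-Sham replicate 2 had the highest Igfbp4 (118 CPM) and Igfbp7 (233 CPM). The same library held 18.3 CPM of 8 epicardial and mesothelial markers, against 4.84 to 11.6 CPM in the other 13, and Upk3b, Msln and Muc16 were highest in it. It also had the highest sum of 8 endothelial markers (1423 CPM, against 790.8 to 1209 CPM in the others) and the highest fibroblast marker sum of the Sham libraries (2290 CPM). Macrophage markers, 8 genes of cells that make Igf1, summed to 143 to 229 CPM in HCN4F-TAC, 152 to 196 CPM in HCN4F-Sham, 150 to 180 CPM in WT-Sham and 142 and 150 CPM in WT-TAC. The part of these cells was not tested.

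**Figure D4:**
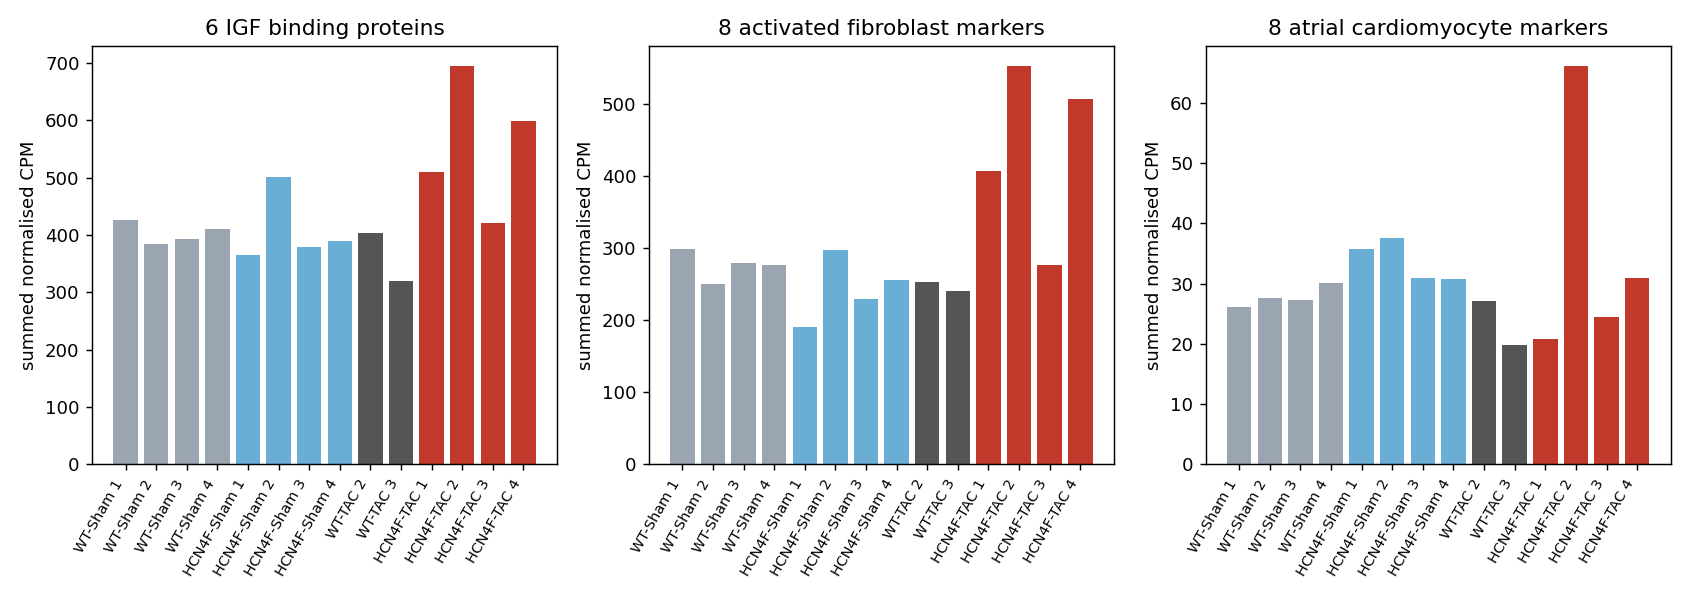
Summed normalised CPM (vertical axes, from 0) of the 6 binding proteins, of 8 activated fibroblast markers and of 8 atrial cardiomyocyte markers in each of the 14 libraries, coloured by group. HCN4F-TAC replicate 3 is lowest of its group in the first and second panels, and replicate 2 stands at 66.1 CPM in the third.

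Between the TAC groups, the members' calls changed with the HCN4F-TAC libraries used and with the settings. Without HCN4F-TAC replicate 3, Igf1, Igfbp6 and Igfbp7 had an adjusted p under 0.05, where 2.97% of all genes did. Without replicates 2 and 3, these 3 and Igfbp2 did, where 0.951% of all genes did, and the log2 fold changes were 0.92 ± 0.15 for Igf1, 3.29 ± 0.49 for Igfbp2, 0.95 ± 0.19 for Igfbp6 and 0.75 ± 0.16 for Igfbp7. With all libraries, none of the 4 passed in edgeR's quasi-likelihood test with the filter on low counts, and Igf1 passed without it. After Sham 0 members passed without replicates 2 and 3 of HCN4F-TAC, where 0.702% of all genes did. Without replicate 1, 2 or 4 alone 0 members passed. Between the TAC groups, Igf1, Igfbp2, Igfbp6 and Igfbp7 kept their direction in each of these fits. Igfbp3 did not, with a log2 fold change of 0.094 with all libraries and -0.006 without HCN4F-TAC replicate 2.

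Outside the family, 82 genes of the pathway in 5 lists were followed, of which 74 passed the filter. After TAC in HCN4F, 10 of the 74 rose and 6 fell on edgeR's adjusted p, and 2 were called, where 13.6% and 2.75% of all tested genes passed these thresholds. In WT, 6 rose and 1 fell, where 4.54% of all genes passed, and 0 were called, where 0.706% were. Between genotypes 1 gene, Socs2, differed after Sham, where 0.471% of all genes did, and 0 after TAC, where 0.111% did. After TAC 10 of the 74 had an unadjusted p under 0.05 in edgeR, where 12.5% of all genes did, and DESeq2 passed 1. The medians over the 74 genes were 0.05 in HCN4F and 0.07 in WT, beside -0.01 and -0.02 over all genes.

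Genes that set IGF availability or cut binding proteins (14 of 16 tested) held 4 that rose in HCN4F and 1 that fell. Adam12, a metalloprotease known to cut binding proteins, had 1.205, 0.776, 0.976 and 0.755 CPM in HCN4F-Sham and 2.65, 2.04, 1.201 and 1.63 CPM in HCN4F-TAC, of which only replicate 3 reached the Sham range. Its log2 fold change was 1.01 ± 0.25 (adjusted p = 0.0129, edgeR's quasi-likelihood test), and its adjusted p was under 0.05 in 22 of 22 settings. The fold was no longer past 1 without HCN4F-Sham replicate 2 or 4 or HCN4F-TAC replicate 1 or 2, with the lowest value of 0.81 without HCN4F-TAC replicate 1. Prss23, a secreted serine protease, went from 7.85 to 9.13 CPM in HCN4F-Sham to 9.57 to 13.9 CPM in HCN4F-TAC with no overlap, a log2 fold change of 0.59 ± 0.11 (adjusted p = 0.00278). Mmp2 rose by 0.53 ± 0.15 (adjusted p = 0.0267 in edgeR's quasi-likelihood test) and Adam9 by 0.34 ± 0.09 (adjusted p = 0.0154), and neither passed without HCN4F-TAC replicates 2 and 3. Mmp2 was also lost without replicate 2 or 4 of HCN4F-TAC and without replicate 1, 3 or 4 of HCN4F-Sham. The gene that fell was Htra1, a secreted serine protease (-0.33 ± 0.09, adjusted p = 0.0249), a call lost in 5 of 22 settings, among them without HCN4F-Sham replicate 1 or 3, without HCN4F-TAC replicate 4 and without HCN4F-TAC replicates 2 and 3. It is named here after its values were seen. In WT 0 of the 14 passed.

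Receptors and adaptors (16 of 18 tested) held 4 that rose in HCN4F. Socs3, a feedback inhibitor of cytokine and insulin receptor signalling, had 4.35 to 5.91 CPM in HCN4F-Sham and 21.0, 9.19, 7.59 and 11.96 CPM in HCN4F-TAC, with no overlap. Its log2 fold change was 1.27 ± 0.31 (adjusted p = 0.0165 in edgeR's quasi-likelihood test), and in WT it was 0.81 ± 0.37 (adjusted p = 0.218). In HCN4F it fell short of the threshold on the fold without HCN4F-TAC replicate 1 (0.90) and of the adjusted p with no filter on low counts. Grb10, an imprinted adaptor that dampens insulin and IGF receptor signalling, rose by 0.52 ± 0.12 (adjusted p = 0.00847, edgeR's quasi-likelihood test) and the phosphatase gene Ptpn1 by 0.32 ± 0.07 (adjusted p = 0.00629). Gigyf1, which binds Grb10, fell by 0.29 ± 0.08 (adjusted p = 0.0187) and did not pass without HCN4F-TAC replicate 2. In WT the insulin receptor gene Insr rose by 0.52 ± 0.14 (adjusted p = 0.0474 in edgeR's quasi-likelihood test), a call lost in 10 of 22 settings, among them each left-out WT library. Insr had 118 to 144 CPM in WT-Sham and 193 and 187 CPM in WT-TAC.

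In the PI3K, AKT and mTOR list (28 of 28 tested), 4 rose in WT after TAC. Pdpk1, the kinase that activates AKT, had 32.8 to 40.5 CPM in WT-Sham and 57.4 and 65.4 CPM in WT-TAC, a log2 fold change of 0.74 ± 0.14 (adjusted p = 0.0112 in edgeR's quasi-likelihood test). Gsk3b rose by 0.44 ± 0.09 (adjusted p = 0.0134), Mtor by 0.34 ± 0.08 (adjusted p = 0.0338) and Tsc2 by 0.32 ± 0.08 (adjusted p = 0.0406) in the same test. Of these 4, none passed without WT-TAC replicate 3, and Pdpk1 alone passed without WT-TAC replicate 2. In HCN4F, Rps6kb1 rose by 0.24 ± 0.07 (adjusted p = 0.0399 in edgeR's quasi-likelihood test), a call lost in 14 of 22 settings, and Deptor, an inhibitor of mTOR, fell by 0.45 ± 0.09 (adjusted p = 0.00383). Deptor had 21.3, 27.2, 27.7 and 26.6 CPM in HCN4F-Sham and 19.9, 16.5, 19.8 and 19.2 CPM in HCN4F-TAC.

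In growth hormone signalling (6 of 6 tested), Socs2, a growth hormone-induced inhibitor of its receptor, had 16.8, 22.1, 12.9 and 19.7 CPM in WT-Sham and 33.8, 29.6, 29.6 and 36.5 CPM in HCN4F-Sham. After TAC it had 27.9 and 30.9 CPM in WT and 38.6, 26.2, 32.9 and 32.9 CPM in HCN4F. WT-Sham stood below every other library. The log2 fold change was 0.86 ± 0.14 for HCN4F against WT after Sham (adjusted p = 0.0179, edgeR's quasi-likelihood test) and 0.72 ± 0.17 for TAC against Sham in WT (adjusted p = 0.0319), and 0.01 ± 0.14 for TAC against Sham in HCN4F. The first call was lost without HCN4F-Sham replicate 4 (adjusted p = 0.0537) and the second without WT-Sham replicate 1 or 4 or either WT-TAC library. Stat5a fell by 0.29 ± 0.09 in HCN4F (adjusted p = 0.0349 in edgeR's quasi-likelihood test), a call lost in 10 of 22 settings. The growth hormone receptor gene Ghr did not pass in any comparison.

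The last list held genes near Igf2, genes of Igf2 mRNA-binding proteins and imprinted genes of other regions such as Plagl1, Meg3, Peg3 and Mest (10 of 14 tested). Igf2bp2, an mRNA-binding protein, rose in HCN4F by 0.91 ± 0.23 (adjusted p = 0.0168 in edgeR's quasi-likelihood test). It had 6.66, 3.70, 3.44 and 2.75 CPM in HCN4F-Sham and 8.58, 9.25, 6.08 and 6.96 CPM in HCN4F-TAC, and without HCN4F-TAC replicate 2 it did not pass, at 0.80 ± 0.24. Cdkn1c, an imprinted cell cycle inhibitor of the same chromosome region, fell by 0.59 ± 0.13 in HCN4F (adjusted p = 0.00822) and did not pass without HCN4F-TAC replicates 2 and 3. Mrpl23, a mitochondrial ribosomal protein gene beside H19, fell by 0.45 ± 0.09 in HCN4F (adjusted p = 0.00354) and by 0.46 ± 0.11 in WT (adjusted p = 0.0319), where the call was lost in 6 of 22 settings, among them without either WT-TAC library and without WT-Sham replicate 1, 2 or 4. In WT 1 of the 10 passed, and in HCN4F 3 did. Log2 fold changes were negative in 9 of the 10 in WT and 8 in HCN4F, beside 8178 and 7818 of all 15292 tested genes.

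**Figure D5:**
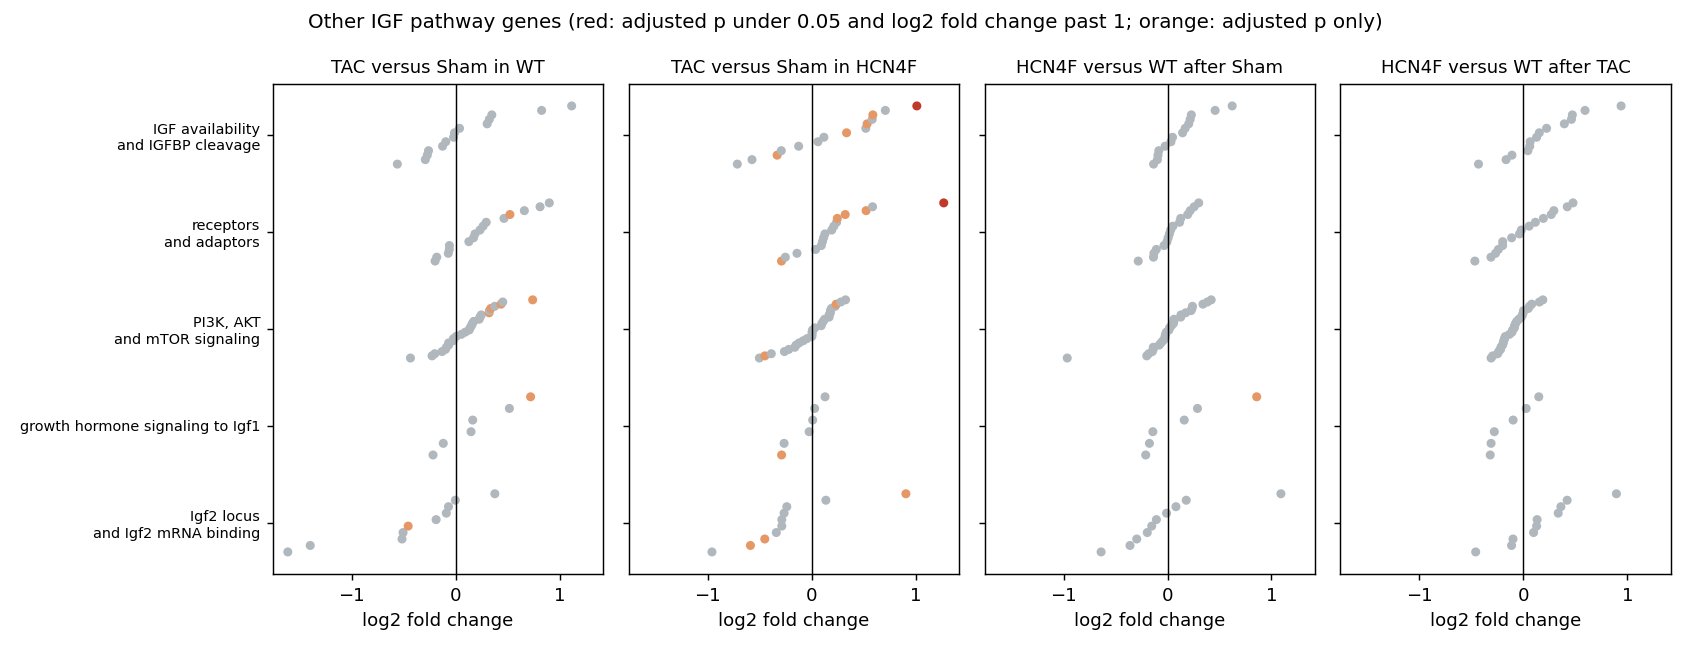
Log2 fold change (horizontal axis, the same in all panels) of 74 further pathway genes in 5 lists (vertical axis) for the 4 comparisons, 1 point per gene. Adam12 and Socs3 after TAC in HCN4F are the genes past both thresholds, and the panel of HCN4F against WT after TAC holds no gene past either.

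The genes whose log2 CPM was most like that of a member over the 14 libraries were found among 12563 candidates. The libraries form groups, so these values describe a shared pattern over groups and depth, and they carry no p. For Igfbp2 they were Aspn (Pearson r = 0.943), Wdfy1 (0.937) and Fam26e (0.929), for Igf1 Pstpip1 (0.927), Siglec1 (0.90) and Aspscr1 (0.899). For the other members past the adjusted p, whose neighbours were named after their values were seen, they were for Igfbp7 Col6a2 (0.974), Uchl1 (0.972) and Serpinf1 (0.963), and for Igf2r Pja2 (0.962), Nek9 (0.962) and Ubr3 (0.955). Aspn, Col6a2 and Serpinf1 encode secreted proteins of the matrix, and Siglec1 a receptor of macrophages.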

How the data were processed

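Left ventricles of 14 mice in 4 groups were compared, with poly(A) RNA sequenced on an Illumina instrument. The authors deposited raw counts of reads per gene for GRCm38, the build in the submitters' processing notes. The aligner, counting program and use of strand are not given in the sources used here. In the count table, 2 further columns that match no sample given here were not used. Libraries held 22309914 to 35210939 counts, and depth limits the low genes: 3 reads were taken as the floor, and the floor and the exact 95% intervals cover counting error only. Replicates are separate animals.

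TMM factors, filterByExpr and robust quasi-likelihood fits in edgeR 4.0.16 (limma 3.58.1, R 4.3.3) covered all 4 groups in 1 model, with Benjamini-Hochberg adjustment over 15292 genes. SE is that of the log2 fold change, and a fit without a library keeps every other one. Exon lengths came from the GENCODE annotation of GRCm38, which held 99.3% of the gene IDs. The steps were tested on simulated data. Alternatives were DESeq2 1.42.0 and its size factors, no filter, a mean CPM of at least 1, the compared groups alone, a non-robust fit, the replicate number as a block, the adjusted p alone and leaving out each library. Leaving out HCN4F-TAC replicates 2 and 3 was chosen after seeing the data. Plots were drawn with matplotlib 3.10.9 (Python 3.11.15).

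The members, marker lists and pathway lists were chosen with earlier results of these data known. Members were named throughout, and of each pathway list at most 4 genes per comparison, those with an adjusted p under 0.05 and the largest log2 fold change in size. The genes most like a member were the 3 with the highest Pearson r of log2 CPM (prior count 2) among genes averaging 1 CPM or more, for the called members and Igf1. H19, Airn, Igf2os, Ghr and the markers named were picked with their values in view.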

Additional observations from a re-analysis of the deposited data

Results flagged for a closer look

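In groups of 4 libraries, the highest or lowest library was set against the others by Dixon's ratio at its 95% limit for 32 genes, 96 groups in all, and 4 were past the limit, where chance passes about 1 in 20. Igf1 had 10.68 CPM in WT-Sham replicate 1, against 9.18 to 9.37 CPM in the other WT-Sham libraries. In HCN4F-Sham replicate 2, Pdpk1 had 31.45 CPM against 45.7 to 47.7 CPM in the others, and Ptpn1 had 25.01 CPM against 22.9 to 23.2 CPM. The same library held the most epicardial and mesothelial marker RNA (18.3 CPM). Deptor had 21.31 CPM in HCN4F-Sham replicate 1 against 26.6 to 27.7 CPM in the others.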

How the results depend on the processing

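Of the members' values under the alternatives, 1062 moved by less than the SE of the log2 fold change in the main fit and 27 by more. None of the values that had been called changed sign. For TAC against Sham in WT, 108 genes were called with all libraries in 1 model, 192 in the compared groups alone, 694 on the adjusted p alone and 7 to 126 with 1 library left out, the lowest without WT-TAC replicate 3. Leaving out WT-Sham replicate 1 or 4 gave 49 and 47. Members called there were 0, and 1 (Igfbp2) with DESeq2, in the compared groups alone, without HCN4F-TAC replicate 1 and without HCN4F-TAC replicates 2 and 3, 1 (Igf2r) on the adjusted p alone, and 0 to 1 with 1 library left out. Pathway genes called there were 0, 2 with DESeq2, 1 in the compared groups alone, 7 on the adjusted p alone and 0 to 1 with 1 library left out (1 without HCN4F-Sham replicate 1).

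For TAC against Sham in HCN4F, 420 genes were called, 260 at a mean CPM of at least 1, 2081 on the adjusted p alone and 273 to 550 with 1 library left out (273 without HCN4F-TAC replicate 2, 550 without replicate 3). Members called were 1, and 2 on the adjusted p alone. Pathway genes called were 2, 1 with no filter, 16 on the adjusted p alone and 0 to 3 with 1 library left out (0 without HCN4F-TAC replicate 1).

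For HCN4F against WT after Sham, 32 genes were called, 60 with DESeq2, 53 with no filter, 72 on the adjusted p alone and 11 to 92 with 1 library left out (11 without WT-Sham replicate 2, 92 without HCN4F-Sham replicate 1). Pathway genes were 0, and 1 on the adjusted p alone. For HCN4F against WT after TAC, 11 genes were called, 84 with DESeq2, 48 with no filter, 3 in the compared groups alone, 17 with the non-robust fit, 17 on the adjusted p alone, 76 without HCN4F-TAC replicates 2 and 3, and 6 to 158 with 1 library left out (6 without WT-TAC replicate 2, 158 without HCN4F-TAC replicate 3). Members called were 0, 1 without HCN4F-TAC replicates 2 and 3, and 0 to 1 with 1 library left out, as were pathway genes, the 1 in both cases without HCN4F-TAC replicate 3. The interaction passed in 0 genes, 37 with DESeq2, 17 with no filter, 1 with the non-robust fit, 16 without HCN4F-TAC replicates 2 and 3 and 0 to 78 with 1 library left out (78 without HCN4F-TAC replicate 3). The cause of these differences was not tested.

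Same-numbered libraries of different groups had deviations that correlated at -0.12 to 0.16 (18 pairs), so the replicate number marks no shared unit. With the replicate block the calls were 68 genes and 1 member (Igfbp2) for TAC against Sham in WT, 1 pathway gene for the same contrast in HCN4F, 21 genes between genotypes after Sham and 7 after TAC, where the log2 fold change of Igfbp2 was 1.02 with the block and 2.52 without it. Depth limits Igfbp2, whose Sham libraries held 0 to 3 reads.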
